A study of Homo sapiens with 6 samples.

Results

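The genes described here are the ligands and receptors of the tumor necrosis factor (TNF) superfamily whose symbols begin with TNFSF (ligands) or TNFRSF (receptors), measured in SUM159 breast cancer cells with and without knockdown of the type III TGF-β receptor (TβRIII, gene TGFBR3). They were chosen by symbol alone, one array feature per gene, which gave 28 genes (9 ligands and 19 receptors) of the 18276 genes that the array measured with a feature of their own. SUM159 is an established human triple negative breast cancer line of the mesenchymal stem-like type. The TGFBR3KD group (TβRIII-KD) carried a lentiviral short hairpin RNA against TGFBR3, with puromycin selection, and the control group carried a control vector. The line was kept in medium with serum and hydrocortisone, and both groups were grown as 3D cultures in matrigel and taken at day 6. RNA from 3 TβRIII-KD samples and 3 control samples was hybridized to 1 Affymetrix Human Gene 1.0 ST array each. Each group was 1 stably transduced cell population, so the loss of TβRIII cannot be told apart from any other difference between those populations. Nothing in the labels says that arrays of the same group were separate cultures, and the p-values therefore rest on an array-to-array spread that could be purely technical. Values were log2 signals of a transcript cluster, the set of probes that covers 1 gene. A difference of 1 on this scale is a doubling of signal. Signals of different genes depend on their probes, so the order of signals between genes is not an order of expression.

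TNF superfamily ligands are mostly trimeric membrane proteins, some of which are cut from the cell surface to act at a distance. Their receptors cluster upon binding and recruit adaptor proteins. Receptors with a death domain, such as TNFR1, can start apoptosis through FADD and caspase-8, whereas receptors without one, such as TNFR2, recruit TRAF proteins and mainly activate NF-κB and MAP kinases. The family is best known for its roles in immune cells, and breast cancer cells also carry several of its receptors, including the receptors for TNF and for TRAIL.

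The targeted gene, TGFBR3, measured 9.72, 10.01 and 10.16 on the TβRIII-KD arrays, against 10.81, 10.89 and 10.56 on the control arrays, a log2 fold change of -0.79 (SE 0.13, limma adjusted p = 0.0145). All 3 TβRIII-KD arrays lay below all 3 control arrays. The limma adjusted p of TGFBR3 passed the threshold no longer without control replicate 1 (0.077), without control replicate 2 (0.0554) or without TβRIII-KD replicate 2 (0.0625). The correlation between arrays over all clusters was 0.992 to 0.994 within TβRIII-KD, 0.995 to 0.996 within control and 0.986 to 0.992 between the groups. Of 5 genes typical of this mesenchymal line (VIM, CD44, FN1, ZEB1 and AXL) none passed the test in limma, and their mean log2 signal was 11.67 to 11.83 on TβRIII-KD arrays and 11.76 to 11.83 on control arrays. Of 6 luminal or epithelial genes, GATA3, a luminal transcription factor, rose (log2 fold change 0.68, SE 0.10, limma adjusted p = 0.00858). It was the only one of the 6 to pass, where 2.33% of all genes passed.

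Among the 28 TNF superfamily genes, TNFRSF1B, which encodes TNF receptor 2 (TNFR2), rose in TβRIII-KD cells, and it was the only one whose change passed the test. The test was limma with Benjamini-Hochberg adjustment over all 22148 clusters, and a gene passed at an adjusted p under 0.05 and a log2 fold change over 0.5 in size. Thus 1 of 28 members passed upward, where 0.772% of all 18276 genes did, and 0 of 28 passed downward, where 1.55% of all genes did (2.33% in either direction). The low number of members that passed stands near this background and does not set the family apart. Without a limit on the fold change the count stayed at 1 member, against 3.48% of all genes (1.26% higher and 2.22% lower), and 7 members had an unadjusted p under 0.05, against 15.6% of all genes.

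**Figure D1:**
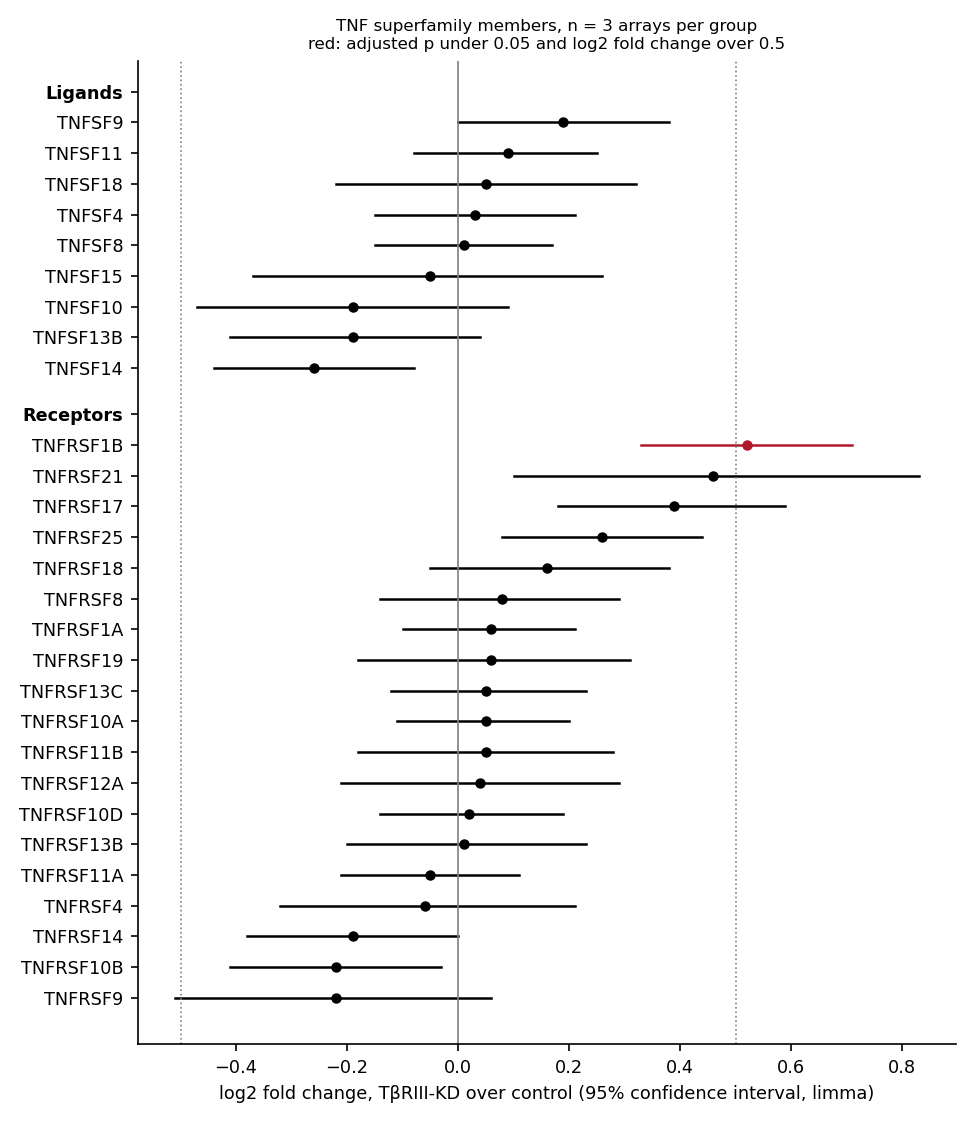
Log2 fold change (TβRIII-KD over control, x axis) with its 95% confidence interval for each of the 9 ligands and 19 receptors (rows), with dotted lines at the limit of 0.5 in either direction. TNFRSF1B, in red, lies at 0.52 and is the only member past the test, while 24 of the 28 intervals lie wholly inside the dotted lines.

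TNFR2 binds both membrane-bound and soluble TNF, responds most strongly to the membrane-bound form, and lacks a death domain. TNFRSF1B measured 8.41, 8.18 and 8.19 on the TβRIII-KD arrays and 7.73, 7.79 and 7.71 on the control arrays. Every TβRIII-KD array was above every control array, and the control arrays were the tighter group. The mean was 8.26 ± 0.13 in TβRIII-KD and 7.74 ± 0.04 in control (SD, n = 3 each). The log2 fold change was 0.52 (SE 0.08, 95% confidence interval 0.33 to 0.71), a 1.43-fold higher signal, with a limma adjusted p of 0.0139. A two-sided exact permutation test over the 6 arrays gave p = 0.1, the smallest value that 3 against 3 arrays allow. Of the arrays, TβRIII-KD replicate 1 was the highest, and without it the log2 fold change was 0.44, under the limit of 0.5, with a limma adjusted p of 0.0351. The call was also lost without control replicate 1 (0.51, limma adjusted p = 0.0755) and without control replicate 3 (0.50, limma adjusted p = 0.0659).

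TNFR1, the other TNF receptor, is encoded by TNFRSF1A and carries a death domain. TNFRSF1A measured 11.37, 11.31 and 11.38 on the TβRIII-KD arrays and 11.25, 11.30 and 11.34 on the control arrays, so the groups overlapped. Its log2 fold change was 0.06 (SE 0.07, 95% confidence interval -0.10 to 0.21, limma adjusted p = 0.764). The fold change of TNFRSF1B exceeded that of TNFRSF1A by 0.46 on the log2 scale, and the within-array difference of the 2 receptors did not overlap between the groups (two-sided exact permutation p = 0.1, the smallest possible). This pair was compared after its values were seen. TNF itself measured 6.14, 6.08 and 6.19 in TβRIII-KD and 6.27, 6.19 and 6.16 in control. The TNF groups overlapped, with a log2 fold change of -0.07 (SE 0.07, limma adjusted p = 0.691).

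The promoters of the 2 TNF receptor genes are shown because the genes share a ligand and differed in their values. Each run is the 250 bases before the RefSeq gene start in GRCh38.p14, read 5′ to 3′ on the gene's strand, chr1:12166741-12166990 on the plus strand for TNFRSF1B and chr12:6342077-6342326 on the minus strand for TNFRSF1A. Capitals mark the GC box, GGGCGG on either strand, the motif bound by Sp1-type factors.
TNFRSF1B: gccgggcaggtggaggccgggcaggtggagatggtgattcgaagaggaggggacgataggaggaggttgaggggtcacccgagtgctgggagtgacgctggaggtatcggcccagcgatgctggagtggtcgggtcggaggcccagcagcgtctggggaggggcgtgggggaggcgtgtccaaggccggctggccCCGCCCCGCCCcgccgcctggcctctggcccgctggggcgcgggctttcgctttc
TNFRSF1A: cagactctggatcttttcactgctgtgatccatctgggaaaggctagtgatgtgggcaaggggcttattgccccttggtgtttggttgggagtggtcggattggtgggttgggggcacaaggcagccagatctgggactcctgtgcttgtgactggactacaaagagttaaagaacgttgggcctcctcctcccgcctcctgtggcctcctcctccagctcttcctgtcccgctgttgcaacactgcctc
The TNFRSF1B window was 72.4% G or C and held 2 GC boxes that overlap by 1 base, whereas the TNFRSF1A window was 56.8% G or C and held 0. Over all 35114 promoter windows of this length, the median was 58% G or C and 42.6% held a GC box. Neither window held the Smad-binding CAGA box (CAGACA, in 13.6% of all windows), the AP-1 motif (TGANTCA, 6.57%), the TATA box (TATAAA, 10.7%) or the NF-κB motif (5.21%), each searched on both strands. These matches describe the letters in the windows only, and no binding was measured here.

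TNFRSF1B is 1 of 9 members on chromosome 1. The 3 nearest measured protein-coding genes on either side in RefSeq order were MFN2, MIIP and TNFRSF8 before it and VPS13D, DHRS3 and AADACL4 after it. Their log2 fold changes lay between -0.02 and 0.08 and none passed the limma test. The adjacent TNFRSF8, which encodes CD30, a receptor of activated lymphocytes, had a log2 fold change of 0.08.

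**Figure D2:**
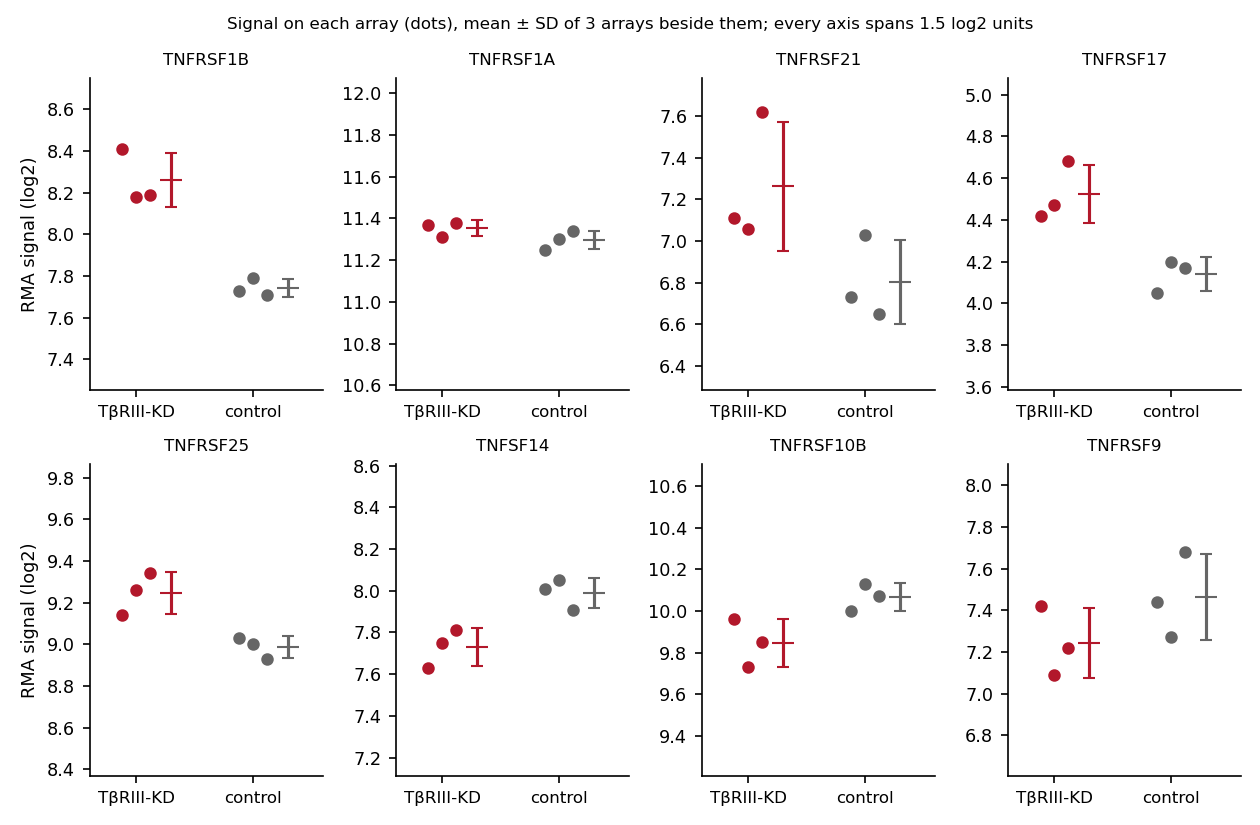
Log2 signal (y axes) on each array for 8 of the members, with TβRIII-KD arrays left and control arrays right in each panel, and bars for the group mean and SD (n = 3 each). For TNFRSF1B the 3 TβRIII-KD arrays, at 8.18 to 8.41, lie above the 3 control arrays, at 7.71 to 7.79.

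The other death domain receptors did not pass the test. TNFRSF21 encodes death receptor 6, a receptor of neurons and lymphocytes, and measured 7.11, 7.06 and 7.62 in TβRIII-KD and 6.73, 7.03 and 6.65 in control. The groups did not overlap, although control replicate 2 came close to the lower TβRIII-KD arrays and TβRIII-KD replicate 3 stood above the rest. The log2 fold change was 0.46 (SE 0.16, 95% confidence interval 0.10 to 0.83, limma adjusted p = 0.197), and it was 0.29 without TβRIII-KD replicate 3. TNFRSF25, which encodes death receptor 3, the receptor for TL1A (TNFSF15), measured 9.14, 9.26 and 9.34 in TβRIII-KD and 9.03, 9.00 and 8.93 in control. All its TβRIII-KD arrays were higher, with a log2 fold change of 0.26 (SE 0.08, limma adjusted p = 0.136). The ligand TNFSF15 had a log2 fold change of -0.05.

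TRAIL (TNFSF10) is a ligand that can kill tumor cells through death receptors and is also bound by decoy receptors. TNFRSF10B, which encodes the death receptor DR5, measured 9.96, 9.73 and 9.85 in TβRIII-KD and 10.00, 10.13 and 10.07 in control. Every TβRIII-KD array was lower, by a narrow margin for replicate 1, and the log2 fold change of -0.22 (SE 0.08) had a limma adjusted p of 0.243. TNFRSF10D, a decoy receptor with a truncated death domain, measured 9.69, 9.54 and 9.65 in TβRIII-KD and 9.65, 9.59 and 9.57 in control. Here the groups overlapped fully, with a log2 fold change of 0.02 (SE 0.07, limma adjusted p = 0.929). TNFRSF10A, which encodes DR4, and TNFRSF11B, which encodes osteoprotegerin, a soluble decoy for RANKL and TRAIL, each had a log2 fold change of 0.05. TNFSF10 itself had a log2 fold change of -0.19 (limma adjusted p = 0.522).

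TNFRSF17 encodes BCMA, the plasma cell receptor for BAFF and APRIL. Its cluster measured 4.42, 4.47 and 4.68 in TβRIII-KD and 4.05, 4.20 and 4.17 in control. The groups were apart, with a log2 fold change of 0.39 (SE 0.09, 95% confidence interval 0.18 to 0.59) and a limma adjusted p of 0.0608. These signals lay below the median signal of all genes, 7.70, which was used as a filter in an alternative. Over the alternative settings its limma adjusted p ran between 0.0472 and 0.236, and its log2 fold change between 0.31 and 0.44, under the limit of 0.5. The related B cell receptors TNFRSF13B (TACI) and TNFRSF13C (BAFF receptor) had log2 fold changes of 0.01 and 0.05, and the ligand TNFSF13B (BAFF) one of -0.19 (limma adjusted p = 0.422).

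Among the TRAF-binding receptors without a death domain, TNFRSF9, which encodes the T cell co-stimulator 4-1BB, measured 7.42, 7.09 and 7.22 in TβRIII-KD and 7.44, 7.27 and 7.68 in control. The groups overlapped, with a log2 fold change of -0.22 (SE 0.12, limma adjusted p = 0.450). TNFRSF12A, which encodes Fn14, the receptor for TWEAK, measured 10.15, 10.10 and 9.88 in TβRIII-KD and 9.82, 10.14 and 10.07 in control. Each group of TNFRSF12A had 1 low array and the log2 fold change was 0.04 (SE 0.11, limma adjusted p = 0.911). TNFRSF11A, which encodes RANK, the receptor through which RANKL acts on osteoclasts and mammary epithelium, measured 8.61, 8.57 and 8.54 in TβRIII-KD and 8.68, 8.64 and 8.56 in control. The RANK groups overlapped as well, with a log2 fold change of -0.05 (SE 0.07, limma adjusted p = 0.783). The remaining receptors TNFRSF4 (OX40), TNFRSF14 (HVEM), TNFRSF18 (GITR) and TNFRSF19 (TROY) had log2 fold changes of -0.06, -0.19, 0.16 and 0.06, and none passed the limma test.

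No ligand passed the limma test, where 2.33% of all genes did, or a test of each gene without limma's moderation. The ligand signals were mostly low, with a mean of 6.04 to 6.16 on TβRIII-KD arrays and 6.11 to 6.13 on control arrays. Only 1 of 9 ligands was at or above the median signal of all clusters, against 12 of 19 receptors. Low signals lie near background, where RMA compresses differences, so a change in these ligands could have been missed. An unadjusted limma p under 0.05 was reached by 2 of 9 ligands, against 15.6% of all genes. TNFSF14 encodes LIGHT, a ligand of HVEM and the lymphotoxin β receptor. It measured 7.63, 7.75 and 7.81 in TβRIII-KD and 8.01, 8.05 and 7.91 in control, and all TβRIII-KD arrays were lower. Its log2 fold change was -0.26 (SE 0.08, 95% confidence interval -0.44 to -0.08, limma adjusted p = 0.145). TNFSF9, the ligand of 4-1BB, had a log2 fold change of 0.19 (SE 0.08, limma adjusted p = 0.321). TNFSF11 (RANKL), TNFSF18 (the GITR ligand), TNFSF4 (the OX40 ligand) and TNFSF8 (the CD30 ligand) had log2 fold changes of 0.09, 0.05, 0.03 and 0.01.

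Across the members the fold changes were small. The median log2 fold change was 0.04, beside 0.01 over all genes, and the median size was 0.07, beside 0.09. It was above 0 for 19 members and below 0 for 9, and it was under 0.3 in size for 25. The interval lay within 0.5 in either direction for 24 members, so a change in signal larger than the limit fell outside the interval for these. It reached past 0.5 in size for TNFRSF1B, TNFRSF21, TNFRSF17 and TNFRSF9. The intervals bound the array signal only. Just 13 of the 28 members were at or above the median signal of all clusters, and RMA compresses differences at low signals. The groups did not overlap for 9 members of 28, where 21.3% of all genes did not overlap. Of these, 6 were higher in TβRIII-KD (TNFRSF1B, TNFRSF21, TNFRSF17, TNFRSF25, TNFRSF18 and TNFSF9) and 3 were lower (TNFSF14, TNFRSF10B and TNFRSF14), where 10.2% of all genes were higher and 11% lower. No member was removed for low signal.

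**Figure D3:**
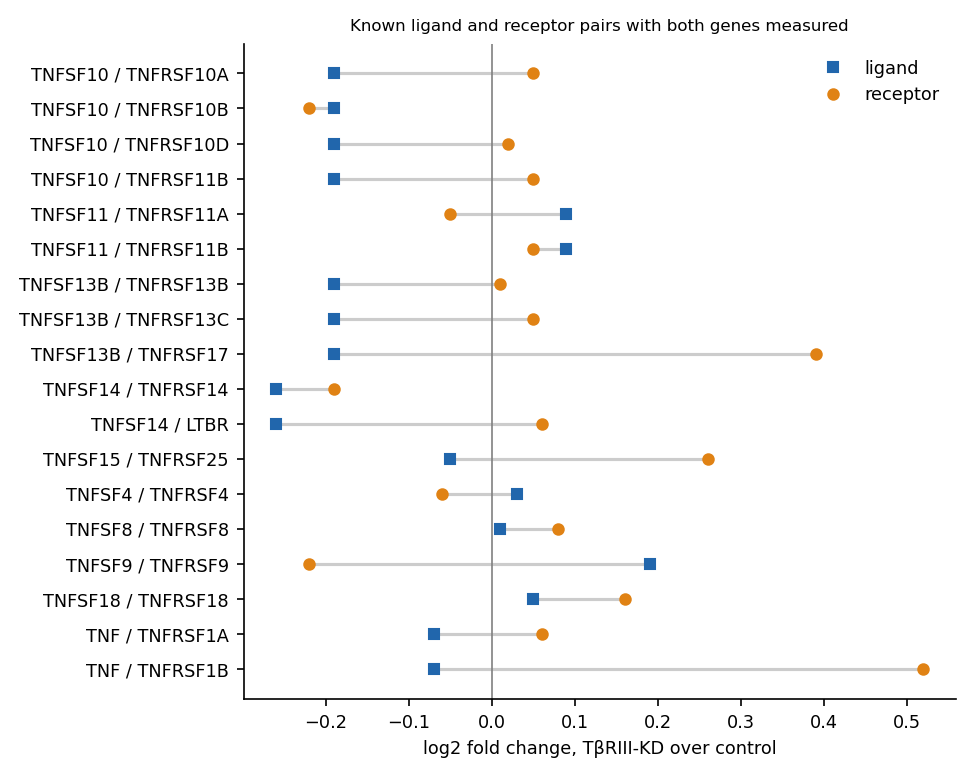
Log2 fold change (TβRIII-KD over control, x axis) of the ligand and of its receptor for each of 18 ligand-receptor pairs (rows) with both genes measured. Among the rows shown, TNF and TNFRSF1B form the only one with a gene past the test, at -0.07 for the ligand and 0.52 for the receptor. LTA, which also binds TNFRSF1B, is not shown (log2 fold change 0.18).

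Ligands and receptors that bind each other were set side by side. Of 24 listed pairs, 18 had both genes measured. The list was not complete. It left out LTA with either TNF receptor (log2 fold change of LTA 0.18) and CD70 with CD27 (0.38 and 0.12). In the listed pairs, the fold changes of ligand and receptor had the same sign in 5 and opposite signs in 13. TNFSF10 and TNFSF13B (both -0.19) each stood in several pairs, so the pairs are not independent and the split is not a count of separate results. In 17 of the 18 pairs neither gene passed the test, so most of these signs lie within the error of the measurement. TNFSF14 and its receptor TNFRSF14 were both lower on every TβRIII-KD array than on any control array (log2 fold changes of -0.26 and -0.19), and neither passed the limma test. LTBR, the other receptor measured with TNFSF14 among the pairs, did not share this fall (log2 fold change 0.06). TNFRSF14 measured 8.15, 8.22 and 8.34 in TβRIII-KD and 8.38, 8.36 and 8.52 in control, and it was singled out after its values were seen.

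Superfamily genes with other symbols also stayed short of the threshold. Of 15 such genes 14 were measured, and their median log2 fold change was 0.06. In limma 0 passed in either direction, a number near the share of 2.33% over all genes. CD70, the ligand of the T cell co-stimulator CD27, measured 7.03, 7.24 and 7.14 in TβRIII-KD and 6.77, 6.65 and 6.85 in control. All its TβRIII-KD arrays were higher, with a log2 fold change of 0.38 (SE 0.09, limma adjusted p = 0.0549). CD27 was at 0.12, FASLG, the ligand that triggers apoptosis through FAS, at 0.10, and FAS at -0.11. The log2 fold change was 0.18 for LTA (lymphotoxin α), 0.06 for LTBR (the lymphotoxin β receptor) and 0.10 for NGFR (the low-affinity neurotrophin receptor).

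Downstream of the receptors, 26 of 30 listed signaling genes were measured, and 1 fell and 0 rose, a number near the share over all genes, of which 1.55% fell and 0.772% rose. TRAF2, RIPK1, BIRC3 and TAB1 were not among the 26, so the list does not cover all signaling below the TNF receptors. The median log2 fold change of the 26 was -0.02, beside 0.01 over all genes. The gene that fell was TRAF3IP2, which encodes Act1, an adaptor of the IL-17 receptor that also acts in CD40 and BAFF receptor signaling. It measured 9.53, 9.30 and 9.34 in TβRIII-KD and 9.99, 9.98 and 9.89 in control, well apart, with a log2 fold change of -0.56 (SE 0.08, limma adjusted p = 0.00994). Without control replicate 1 its limma adjusted p was 0.0591. TAB2, an adaptor that links TRAF6 and TRAF2 to the kinase TAK1, measured 9.60, 9.47 and 9.45 in TβRIII-KD and 9.06, 9.12 and 9.09 in control. All TβRIII-KD arrays of TAB2 were higher, but the log2 fold change of 0.42 (SE 0.07, limma adjusted p = 0.0190) was under the fold limit. Leaving out single arrays moved the limma adjusted p of TAB2 between 0.0233 and 0.0994. It was under 0.05 only without TβRIII-KD replicate 3. MAP3K5, the stress kinase ASK1, had a log2 fold change of 0.42 and a limma adjusted p of 0.0699. Of 17 genes that carry out receptor-induced death, 15 were measured, and the median was 0.02. Of these 0 passed, a number near the share of 2.33% over all genes. In this list MLKL, the effector of necroptosis, had a log2 fold change of -0.30 (limma adjusted p = 0.117), CASP9, the initiator caspase of the mitochondrial pathway, 0.29 (limma adjusted p = 0.122) and BID, which links death receptors to mitochondria, -0.21 (limma adjusted p = 0.442).

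**Figure D4:**
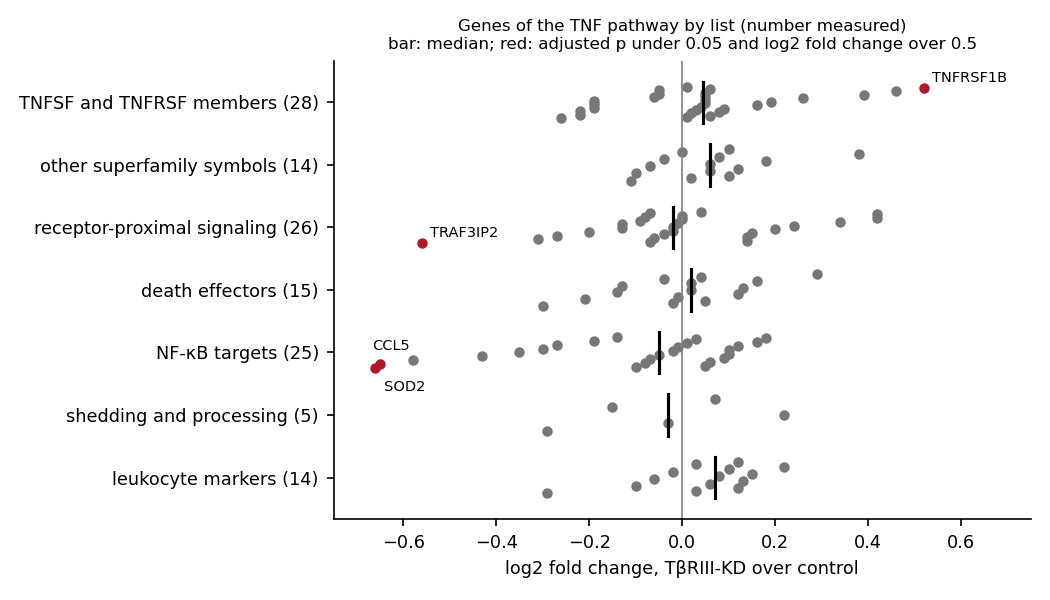
Log2 fold change (TβRIII-KD over control, x axis) of every measured gene in each list (rows), with a bar at the list's median and genes past the test in red. TNFRSF1B lies at 0.52 among the members, whereas TRAF3IP2 (-0.56), CCL5 (-0.65) and SOD2 (-0.66) lie on the other side of 0.

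All 25 listed target genes of TNF and NF-κB were measured, and 2 fell and 0 rose, where 1.55% of all genes fell and 0.772% rose. The median log2 fold change was -0.05, beside 0.01 over all genes. The 2 were SOD2, the mitochondrial superoxide dismutase, and CCL5, a chemokine for T cells and monocytes. SOD2 measured 10.66, 10.34 and 10.85 in TβRIII-KD and 11.25, 11.22 and 11.36 in control. All TβRIII-KD arrays of SOD2 were lower, with a log2 fold change of -0.66 (SE 0.12, limma adjusted p = 0.0263). CCL5 measured 9.09, 8.87 and 9.35 in TβRIII-KD and 9.69, 9.74 and 9.84 in control, which did not overlap. Its log2 fold change was -0.65 (SE 0.12, limma adjusted p = 0.0234). IL6, an inflammatory cytokine, measured 6.47, 6.19 and 6.20 in TβRIII-KD and 6.65, 7.14 and 6.80 in control, also apart, and did not pass (log2 fold change -0.58, limma adjusted p = 0.0591). Of the 25 targets 12 did not overlap between the groups (2 higher and 10 lower in TβRIII-KD), where 21.3% of all genes did not overlap (10.2% higher and 11% lower). The SOD2 and CCL5 calls rested on most of the arrays. Leaving out single arrays moved the limma adjusted p between 0.00779 and 0.102 for SOD2 and between 0.00545 and 0.0961 for CCL5. For both it rose above 0.05 when any single control array or TβRIII-KD replicate 1 was left out. For CCL5 it also did so without TβRIII-KD replicate 2.

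Genes for the proteases that cut superfamily proteins from the cell surface, and for proteins that help them, did not pass the test. All 5 listed genes were measured, 0 passed in limma, where 2.33% of all genes did, and the median log2 fold change was -0.03. ADAM17, the protease that releases TNF and sheds both TNF receptors, measured 9.40, 9.35 and 9.49 in TβRIII-KD and 9.63, 9.72 and 9.76 in control. All TβRIII-KD arrays of ADAM17 were lower, with a log2 fold change of -0.29 (SE 0.08, limma adjusted p = 0.0866). ADAM10, a related sheddase, and RHBDF2, which carries ADAM17 to the surface, had log2 fold changes of 0.22 and -0.15.

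Many superfamily genes are best known from immune cells and TNFR2 also from endothelium, so markers of those cells were read on the same arrays. Of 15 leukocyte markers 14 were measured and 0 passed in limma, where 2.33% of all genes did. The markers' log2 fold changes ran between -0.29 (CD68) and 0.22 (MS4A1). Their mean log2 signal was 6.41 to 6.47 on TβRIII-KD arrays and 6.37 to 6.41 on control arrays. PTPRC, which encodes the pan-leukocyte protein CD45, measured 4.28, 4.47 and 4.45 in TβRIII-KD and 4.08, 4.44 and 4.24 in control, which overlapped. The 7 endothelial markers, none of which passed, averaged 6.10 to 6.21 on TβRIII-KD arrays and 6.07 to 6.11 on control arrays. Both groups were cultures of the established line SUM159, and whether these small shifts bear on the TNFRSF1B result was not tested. In RNA from whole cultures, fewer cells that express a gene and less RNA per cell cannot be told apart.

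Some superfamily genes shared an array cluster with other genes and were left out of the 28. The cluster of TNFSF12 and TNFSF13 (TWEAK and APRIL) measured 8.02, 8.16 and 8.12 in TβRIII-KD and 8.19, 8.18 and 8.20 in control. All TβRIII-KD arrays were lower by a small amount, with a log2 fold change of -0.09 (SE 0.07, limma adjusted p = 0.629). The cluster of RTEL1 and TNFRSF6B, the soluble decoy DcR3, had a log2 fold change of 0.08 (SE 0.07, limma adjusted p = 0.654). That of TNFRSF10C, a TRAIL decoy receptor, and a neighboring noncoding gene had one of -0.03 (SE 0.09, limma adjusted p = 0.911).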

How the data were processed

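RNA of 3 TβRIII-KD and 3 control SUM159 samples was measured on 1 Affymetrix Human Gene 1.0 ST array each. The authors processed the arrays by RMA (background correction, quantile normalization and summarization) in the oligo package under R 3.0.1, and deposited log2 signals for 22148 transcript clusters, which were used as given. No genome build is given in the sources used here. Array medians were 7.67 to 7.71. With so few arrays, their number sets the precision.

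Of the clusters, 19129 named 1 gene, 1735 several and 1284 none in the platform annotation. For a gene with several clusters, the cluster of highest mean signal was kept. Groups came from the labels. The 6 arrays were fitted in limma 3.58.1 (lmFit, eBayes) under R 4.3.3 over all clusters, with Benjamini-Hochberg adjustment. Genes passed if the adjusted p was under 0.05 and the log2 fold change exceeded 0.5 in size. The code was tested on simulated data. Members named with values on every array are those with an adjusted p under 0.05, the 6 with the largest log2 fold change in size, the 6 with the highest mean signal, and the pair partners of a member that passed. From each other list, genes that passed and up to 3 with the largest log2 fold change in size are named. Names outside this rule were chosen after their values were seen. Members and lists were chosen with earlier results of these data known. Alternatives covered the moderation, array weights, normalization, a signal filter, the fold limit, the cluster rule, a replicate block, the methods' t-test and leaving out each array. The paper names limma for differential expression on these arrays. The methods' t-test is the unpaired Student's t-test of its general statistics statement. Promoters came from RefSeq (GRCh38.p14), which matched 19 of 28 members.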

Additional observations from a re-analysis of the deposited data

How the results depend on the processing

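Of 28 members, 1 passed the test upward, TNFRSF1B, and it was called in 12 of 16 alternative settings, with a log2 fold change between 0.44 and 0.56. Among the 12, dropping the fold limit could not undo the call. Averaging a gene's clusters left its value as it was, since it has 1 cluster. Under the methods' t-test 0 members passed (TNFRSF1B adjusted p = 0.134), and leaving out 1 array gave between 0 and 1, with 0 without control replicate 1, control replicate 3 or TβRIII-KD replicate 1. No member passed downward in any setting that was run. The members whose groups did not overlap numbered 9, and between 10 and 14 with 1 array left out (14 without control replicate 3), where fewer arrays make overlap less likely. They numbered 6 of 28 with quantile normalization repeated, 8 with arrays centred on their medians and 6 of 13 under the signal filter. The share over all genes, 21.3%, is that of the main setting only. The counts in the other settings therefore have no matching share beside them. Over all clusters 501 passed, 17 under the methods' t-test, and between 304 (without control replicate 1) and 638 with 1 array left out, with 319 without TβRIII-KD replicate 2. TGFBR3 was at -0.79 also under the methods' t-test (adjusted p = 0.198), and between -0.89 and -0.67 with 1 array left out. The sign never turned for 18 of 28 members. It turned in at least 1 setting for the other 10, all with a log2 fold change between -0.06 and 0.06. These were TNFRSF10D (between -0.01 and 0.06 with 1 array left out, negative without TβRIII-KD replicate 1), TNFRSF12A (between -0.06 and 0.12, negative without control replicate 1 or TβRIII-KD replicate 1, -0.01), TNFRSF4, TNFRSF11B, TNFRSF13B (also with array weights), TNFRSF19, TNFSF4, TNFSF8 (also with quantile normalization repeated), TNFSF15 and TNFSF18. Of the other genes named by the rule, FASLG turned (between -0.03 and 0.20, negative without TβRIII-KD replicate 2). The cause of these changes was not tested. The filter at the median signal left 13 members to test.

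Same-numbered arrays deviated from their group means with correlations of -0.06, 0.11 and 0.31, and 3 of 6 arrays correlated best with their own number. With so few arrays this cannot decide whether same-numbered arrays shared more than a number. With the replicate block 616 clusters passed, and the members that passed were the same, 1 upward and 0 downward. The probes of a cluster are summarized together, so transcripts of 1 gene were not resolved, and low signals lie near background, where RMA compresses differences.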
